A study of Mus musculus with 18 samples.

Results

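The insulin-like growth factor 2 mRNA-binding proteins (Igf2bp1, Igf2bp2 and Igf2bp3) and the high mobility group AT-hook proteins (Hmga1 and Hmga2) are described here in sorted mouse cardiomyocytes. The members were taken by name from a list of 5 genes, chosen with earlier results of these data known. Of these, 4 were present among the 12048 genes of every table, and Hmga2 was not listed in the tables. The RNA came from hearts of Mlc2vcre:R26REYFP mice, in which a Cre recombinase driven by a ventricular myosin light chain promoter switches on a yellow fluorescent protein. All 18 libraries share this genotype, and a ventricular driver marks ventricular myocytes. Cells were sorted by nuclear number late in gestation (E18.5), in the newborn period (P7, postnatal day 7) and from adults, as binucleated (2N) and mononucleated (1N) cardiomyocytes, with 3 libraries in each of the 6 groups. The labels give no adult age, strain or sex, nor how nuclear number was read in the sort. Nor do they say whether replicates were separate animals, so each p-value reflects library-to-library spread alone, and that spread may be technical. The comparisons ask how the genes differed between nuclear classes at each age and between ages within each class.

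Igf2bp1 and Igf2bp3 are oncofetal: they are abundant in embryonic tissues, are largely switched off after birth, and return in many tumours, whereas many adult tissues keep Igf2bp2. All Igf2bp proteins bind messenger RNAs in the cytoplasm, among them Igf2, Actb and Myc, affect where these are translated and how long they last, and read the N6-methyladenosine (m6A) mark. Hmga proteins bind the minor groove of AT-rich DNA and shape chromatin in fetal and dividing cells. Both families are described targets of the let-7 microRNAs, whose maturation is blocked by Lin28 proteins in fetal cells and which accumulate as tissues mature.

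Because let-7 links the families, the microRNA sequences and the matching stretches of the members are shown. The RefSeq entries (build GRCm38.p6) held 9 mature let-7 and miR-98 names, and all 9 share the seed GAGGUAG, bases 2 to 8, which is in capitals.
mmu-let-7a-5p: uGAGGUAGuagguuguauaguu
mmu-let-7b-5p: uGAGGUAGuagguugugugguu
mmu-miR-98-5p: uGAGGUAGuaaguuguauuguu
The complement of that seed, CTACCTC, was searched on the transcript strand of the longest annotated 3′ untranslated region of each gene (GENCODE M21, build GRCm38). Igf2bp1 held 4 matches in 6337 bases, and Igf2bp2, Igf2bp3 and Hmga1 held 1 each in 1784, 2119 and 1183 bases. Each match is given with the bases before it and the base after it, 5′ to 3′, with the match in capitals.
Igf2bp1, chromosome 11, base 1715 of the region: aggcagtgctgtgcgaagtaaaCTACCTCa
Igf2bp1, base 4136: tgggaaccagcagtgctattaaCTACCTCa
Igf2bp1, base 4730: actacgagtataaatggatgaaCTACCTCa
Igf2bp1, base 5353: ctgtttcacttttggttttaatCTACCTCt
Igf2bp2, chromosome 16, base 1313: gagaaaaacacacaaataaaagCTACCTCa
Igf2bp3, chromosome 6, base 548: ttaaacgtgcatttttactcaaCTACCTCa
Hmga1, chromosome 17, base 801: catcttctcctctgttcacaaaCTACCTCt
Of the 11747 measured genes with such a region, 1226 (10.4%) held the motif at least once. Among genes whose region was within 20% of the member's own length, any match was found in 34.4% of 389 genes for Igf2bp1, 12.8% of 1845 for Igf2bp2, 13.8% of 1811 for Igf2bp3 and 7.85% of 1669 for Hmga1. Of the 389 genes compared with Igf2bp1, 0 held as many as 4. A letter match is a description and no evidence of binding, and let-7 itself was not measured in these tables.

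Promoter windows from RefSeq, 250 bases before to 50 bases after the annotated start, are shown for Igf2bp2 and Igf2bp3, which fell together after E18.5 and then parted. The E-box CACGTG, the core element of Myc-family factors, was searched on both strands and is in capitals.
Igf2bp3, chr6:49214905-49215204, minus strand: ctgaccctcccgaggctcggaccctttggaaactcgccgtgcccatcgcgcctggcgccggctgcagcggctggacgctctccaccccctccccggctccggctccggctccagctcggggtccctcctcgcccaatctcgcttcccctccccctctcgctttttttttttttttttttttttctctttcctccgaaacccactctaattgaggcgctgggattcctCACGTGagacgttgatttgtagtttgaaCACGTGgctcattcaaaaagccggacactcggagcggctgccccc
Igf2bp2, chr16:22163250-22163549, minus strand: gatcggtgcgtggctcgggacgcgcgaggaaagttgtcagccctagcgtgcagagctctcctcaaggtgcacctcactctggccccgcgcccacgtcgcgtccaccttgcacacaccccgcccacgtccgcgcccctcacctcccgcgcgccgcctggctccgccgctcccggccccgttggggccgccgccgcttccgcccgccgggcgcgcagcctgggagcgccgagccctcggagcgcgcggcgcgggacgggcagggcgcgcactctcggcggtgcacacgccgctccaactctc
Igf2bp3 held the motif at bases 228 and 256 of its window, and Igf2bp2 and both annotated Hmga1 windows held none. The motif occurred in 7.15% of 32851 mouse promoter windows, and 0.594% held it 2 or more times. The E2F-type motifs TTTCCCGC (1.07% of windows) and TTTGGCGC (0.514%) were in none of these members' windows. No promoter window was available for Igf2bp1, so it was not searched for any of these motifs. As for let-7, a letter match is no evidence of binding. The part of these motifs in the changes with age was not tested.

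Library depth ranged from 14833334 to 22690952 recovered counts. The shallowest library, E18.5 binucleated replicate 1, also stood apart from its group: its log2 differences from the mean of the other two libraries had an SD of 1.22 over genes, against 0.46 to 0.839 for the other 17 libraries. All 12 cardiomyocyte markers were detected in every group, with a summed level of 34199 to 61941 counts per 1000000 (CPM, scaled by each library's effective size). Markers of other cells were present at lower levels and differed between groups. The 12 fibroblast markers listed summed to 357 to 976 CPM in E18.5 binucleated libraries and 68.7 to 120 CPM in E18.5 mononucleated libraries. The 16 endothelial markers summed to 89.1 to 167 CPM in E18.5 binucleated libraries and 21.2 to 45.0 CPM in E18.5 mononucleated libraries. In these sorted but bulk samples, fewer cells of a type and less RNA per cell cannot be told apart.

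Igf2bp1, which stabilises and localises fetal messenger RNAs, was a late fetal transcript in both nuclear classes and was not detected in the adult. At E18.5 its level was 20.1, 18.51 and 17.3 CPM in the binucleated libraries and 18.2, 23.1 and 22.6 CPM in the mononucleated libraries. At P7 it was 0.757, 0.310 and 0.620 CPM in the binucleated libraries and 0.304, 0.792 and 0.756 CPM in the mononucleated libraries, from 5 to 17 counts each. All 6 adult libraries had 0 counts, which allows a level of up to 0.0608 CPM over the adult binucleated group and 0.0612 CPM over the adult mononucleated group, by a floor of 3 counts per group that covers counting error only. The ages did not overlap, and within each age the classes did.

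Igf2bp1 fell by 5.06 ± 0.47 at P7 against E18.5 in binucleated cells on the log2 scale (estimate ± SE, 3 libraries per group; limma on the deposited log2 values, Benjamini-Hochberg adjusted p = 6.37e-07). In mononucleated cells it fell by 5.16 ± 0.47 (adjusted p = 7.91e-07). The level was 33.4-fold lower in P7 than in E18.5 binucleated cells and 35.7-fold lower in P7 than in E18.5 mononucleated cells. In summed counts per effective library size, Igf2bp1 was at least 9.5-fold lower in adult than in P7 binucleated cells and at least 9.8-fold lower in adult than in P7 mononucleated cells. Against E18.5 it was at least 303-fold lower in adult binucleated cells and at least 349-fold lower in adult mononucleated cells. The adult falls passed the test as well (adjusted p 8.61e-11 to 2.79e-06 over the 4 adult comparisons, limma). The fitted log2 values for adult Igf2bp1 depend on the 0.5 added to a count of 0, and are not given as sizes.

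Igf2bp3, a close paralogue of Igf2bp1 known from fetal and tumour tissue, was still well detected at P7 and nearly gone in the adult. At E18.5 its level was 34.6, 40.0 and 37.7 CPM in the binucleated libraries and 38.7, 45.0 and 36.0 CPM in the mononucleated libraries. At P7 it was 7.57, 14.1 and 10.7 CPM in the binucleated libraries and 8.47, 11.3 and 8.84 CPM in the mononucleated libraries. In the adult it was 0.177, 0.333 and 0.287 CPM in the binucleated libraries and 0.274, 0.207 and 0.796 CPM in the mononucleated libraries, from 13 and 21 counts summed over the groups. Each age lay wholly below the age before it, and the classes overlapped at every age.

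Igf2bp3 fell by 1.83 ± 0.38 on the log2 scale at P7 against E18.5 in binucleated cells (adjusted p = 0.00141, limma) and fell by 2.07 ± 0.38 in mononucleated cells (adjusted p = 0.00102). The later step had the larger estimate in both classes, a difference that was not tested. In the adult against P7 it fell by 5.18 ± 0.38 in binucleated cells (adjusted p = 2.84e-08) and fell by 4.60 ± 0.38 in mononucleated cells (adjusted p = 8.54e-08). In summed counts, adult binucleated cells had 144-fold less Igf2bp3 than E18.5 binucleated cells, and adult mononucleated cells had 93.8-fold less than E18.5 mononucleated cells.

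Igf2bp2, the paralogue that adult tissues keep and that is known for roles in metabolism and muscle, stayed detectable throughout. At E18.5 its level was 27.1, 65.4 and 58.2 CPM in the binucleated libraries and 59.5, 62.1 and 52.8 CPM in the mononucleated libraries. At P7 it was 16.6, 16.9 and 17.7 CPM in the binucleated libraries and 19.8, 17.2 and 17.6 CPM in the mononucleated libraries. In the adult it was 11.9, 13.6 and 6.60 CPM in the binucleated libraries and 10.4, 14.2 and 12.4 CPM in the mononucleated libraries. The low E18.5 binucleated value belongs to replicate 1, the library that stood apart, and even this value lay above every P7 value.

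Igf2bp2 fell by 1.46 ± 0.29 on the log2 scale at P7 against E18.5 in binucleated cells (adjusted p = 0.00103, limma), which became a fall of 1.85 without E18.5 binucleated replicate 1. In mononucleated cells it fell by 1.67 ± 0.29 (adjusted p = 0.000616). From P7 onwards the evidence depended on the fit. The log2 difference of adult minus P7 was -0.74 in binucleated cells (adjusted p = 0.0563) and -0.57 in mononucleated cells (adjusted p = 0.131), neither past the threshold. Adult and P7 libraries did not overlap in either class. The share of all genes without overlap was not counted, so non-overlap is a description here and for the other members. All groups share one estimate of the spread, and when E18.5 binucleated replicate 1 was left out the same differences had adjusted p = 0.00718 in binucleated and 0.0286 in mononucleated cells. In binucleated cells the difference was -0.94 with adjusted p = 0.0314 without adult replicate 2, and -0.42 with adjusted p = 0.283 without adult replicate 3. Over the whole interval Igf2bp2 fell by 2.19 ± 0.29 in adult against E18.5 binucleated cells (adjusted p = 6.96e-06) and fell by 2.24 ± 0.29 in mononucleated cells (adjusted p = 6.46e-06).

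Hmga1, an architectural chromatin protein, had smaller estimated changes with age than the Igf2bp genes. In the main fit its only call was as lower at P7 than at E18.5 in binucleated cells. At E18.5 its level was 58.4, 55.7 and 46.4 CPM in the binucleated libraries and 50.1, 57.5 and 46.8 CPM in the mononucleated libraries. At P7 it was 40.2, 28.6 and 40.6 CPM in the binucleated libraries and 42.5, 38.8 and 46.0 CPM in the mononucleated libraries. In the adult it was 46.6, 44.7 and 42.4 CPM in the binucleated libraries and 44.7, 45.4 and 45.6 CPM in the mononucleated libraries. The lowest single value of each class was from P7, while P7 and adult mononucleated values overlapped. Adult and E18.5 values overlapped in binucleated cells. In mononucleated cells every adult value lay below every E18.5 value, a difference that did not pass the test. Hmga1b, a near-identical copy, was not listed in the tables. The counter and gene filter are not given, so whether reads of that copy were counted for Hmga1 or left out is not known.

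Hmga1 fell by 0.56 ± 0.15 on the log2 scale at P7 against E18.5 in binucleated cells (adjusted p = 0.00682, limma with all 18 libraries). In a fit of those groups alone the adjusted p was 0.119. In mononucleated cells the difference was -0.28 with a 95% interval of -0.59 to 0.03 (adjusted p = 0.214). The adult minus P7 difference was 0.31 in binucleated cells (95% interval -0.00 to 0.62, adjusted p = 0.113) and 0.10 in mononucleated cells (-0.21 to 0.41, adjusted p = 0.633). The adult minus E18.5 difference was -0.26 in binucleated cells (-0.57 to 0.05, adjusted p = 0.143) and -0.18 in mononucleated cells (-0.49 to 0.13, adjusted p = 0.313).

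**Figure D1:**
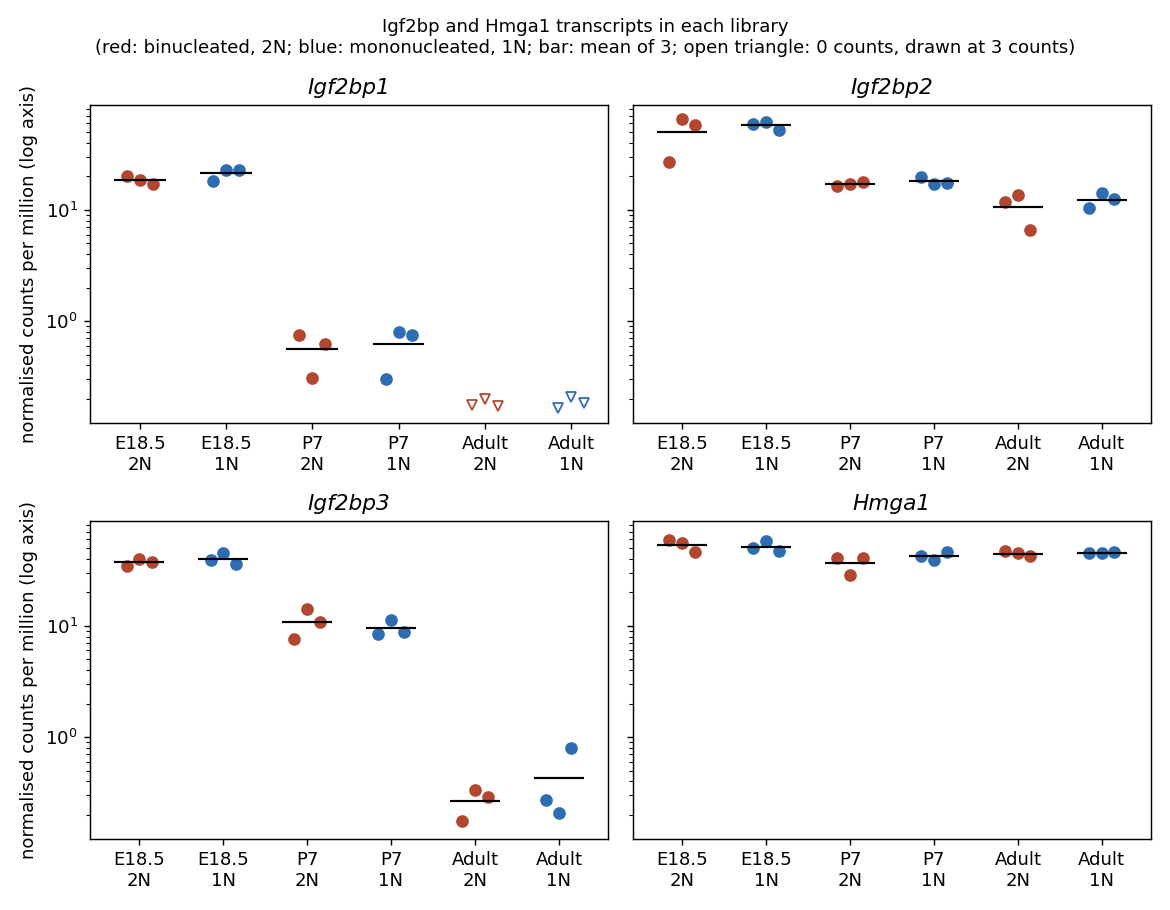
Normalised CPM (log axis) of Igf2bp1, Igf2bp2, Igf2bp3 and Hmga1 in each of the 18 libraries by age and nuclear class; points are libraries, bars are means of 3, and open triangles are libraries with 0 counts drawn at 3 counts. Igf2bp1 and Igf2bp3 fall steeply with age, Igf2bp2 falls less, Hmga1 lies between 28.6 and 58.4 CPM in every library, and the classes overlap at each age.

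Counted over the members, 4 of 4 passed the test as lower at P7 than at E18.5 in binucleated cells, where 17.7% of all genes were called lower. In mononucleated cells 3 of 4 were lower, with 7.84% of all genes called lower. For adult against P7, 2 of 4 members were lower in binucleated cells (19.7% of all genes lower) and 2 of 4 in mononucleated cells (22.3%). For adult against E18.5, 3 of 4 were lower in binucleated cells (29.4% of all genes) and 3 of 4 in mononucleated cells (27.7%). No member was called higher in any age comparison. The comparisons between ages share libraries, so these counts are not independent of each other.

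**Figure D2:**
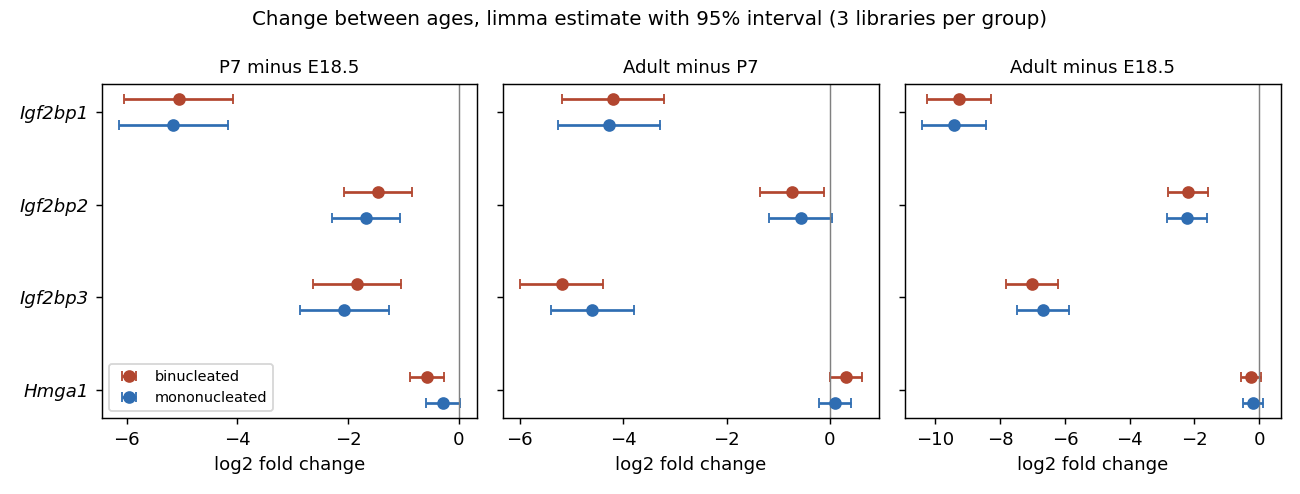
Log2 fold change between ages for each gene, as limma estimates with 95% intervals, in binucleated (red) and mononucleated (blue) cells. Igf2bp1 has the lowest estimates for P7 minus E18.5 (-5.06 and -5.16) and Igf2bp3 for adult minus P7 (-5.18 and -4.60). The adult estimates of Igf2bp1 rest on libraries with 0 counts and depend on the 0.5 added to them. Which of Igf2bp1 and Igf2bp3 fell more from P7 to adult is therefore not known. The Hmga1 estimates lie between -0.56 and 0.31.

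The order of the mean levels, per kilobase of exon so that lengths do not enter, was Hmga1, Igf2bp2, Igf2bp3 and Igf2bp1 from high to low in all 6 groups, while the gaps between the genes differed by age. At E18.5 the mean CPM per kilobase (RPKM) were 25.2 for Hmga1, 6.78 for Igf2bp2, 4.59 for Igf2bp3 and 1.92 for Igf2bp1 in binucleated cells. In mononucleated cells they were 24.2, 7.85, 4.89 and 2.20 RPKM for the same genes in that order. Igf2bp2 and Igf2bp3 overlapped in the binucleated libraries at E18.5, through the 3.65 RPKM of Igf2bp2 in replicate 1, and no other neighbours overlapped. In the adult the values were 20.98 RPKM for Hmga1, 1.44 RPKM for Igf2bp2, 0.0326 RPKM for Igf2bp3 and 0 for Igf2bp1 in binucleated cells. In adult mononucleated cells Hmga1 had 21.3 RPKM, Igf2bp2 1.67 RPKM and Igf2bp3 0.0522 RPKM, and Igf2bp1 was at 0.

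Within the Igf2bp family the make-up shifted to Igf2bp2. Of the family's counts per kilobase at E18.5, Igf2bp1 made up 15.2 ± 4.9%, Igf2bp2 49.4 ± 11.1% and Igf2bp3 35.4 ± 6.2% in binucleated cells (mean ± SD, n = 3). At E18.5 in mononucleated cells the shares were 14.8 ± 2.0%, 52.6 ± 1.9% and 32.7 ± 1.1%. At P7 the Igf2bp1 share was 1.63 ± 0.81% in binucleated cells and 1.73 ± 0.78% in mononucleated cells, while Igf2bp3 still held 35.4 ± 7.0% in binucleated and 31.6 ± 4.5% in mononucleated cells. In the adult Igf2bp2 held 97.6 ± 1.2% in binucleated cells and 97.0 ± 2.2% in mononucleated cells, and Igf2bp3 held the rest. The Igf2bp1 share was thus small by P7, and the Igf2bp3 share was similar at P7 and E18.5 and small in the adult.

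**Figure D3:**
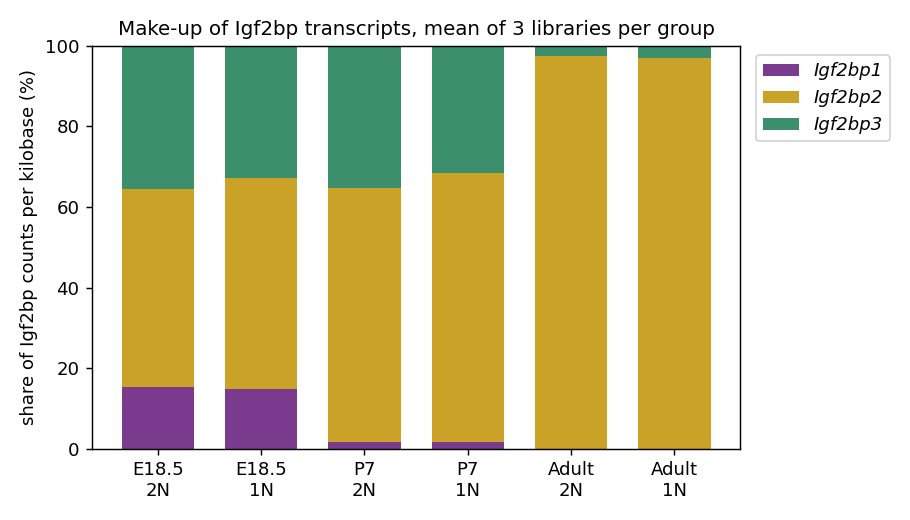
Share of Igf2bp counts per kilobase (%) taken by Igf2bp1, Igf2bp2 and Igf2bp3 in each group, as means of 3 libraries. Igf2bp1 shrinks to under 2% at P7, Igf2bp3 shrinks to 2.44% in adult binucleated and 3.05% in adult mononucleated cells, and Igf2bp2 fills nearly the whole bar in the adult.

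Ratios within a library were compared between ages over 6 libraries of each age with both classes together, by a two-sided exact permutation test chosen after the values were seen, with Benjamini-Hochberg adjustment over 6 tests. The log2 ratio of Igf2bp1 to Igf2bp2 averaged -4.94 at P7 and -1.39 at E18.5, a difference of -3.55 (exact permutation p = 0.00216, the smallest that 6 against 6 can give; adjusted p = 0.00325). The log2 ratio of Igf2bp1 to Igf2bp3 averaged -4.12 at P7 and -0.96 at E18.5, a difference of -3.16 (exact p = 0.00216, adjusted p = 0.00325). The log2 ratio of Igf2bp3 to Igf2bp2 differed by -0.39 between P7 and E18.5, which did not pass the test (exact p = 0.0996, adjusted p = 0.0996). Between adult and P7 that ratio averaged -5.06 in the adult and -0.82 at P7 (exact p = 0.00216, adjusted p = 0.00325). The ratio of Igf2bp2 to Hmga1 was lower by 1.14 on the log2 scale at P7 than at E18.5 (exact p = 0.00649, adjusted p = 0.00779) and lower by 0.85 in the adult than at P7 (exact p = 0.00216, adjusted p = 0.00325). Each of these differences had the same sign in the binucleated and in the mononucleated libraries. Libraries of the same number and age may come from shared material, so the 6 libraries of an age may not be independent. The exact p-values do not allow for this.

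No member differed between nuclear classes at any age by limma's test. At E18.5 0 of 4 members were called, where 0.805% of all genes were (97 genes, and 1679 at an unadjusted p under 0.05). The binucleated minus mononucleated log2 differences were -0.19 for Igf2bp1 (95% interval -1.17 to 0.80), -0.31 for Igf2bp2 (-0.92 to 0.31), -0.09 for Igf2bp3 (-0.89 to 0.71) and 0.05 for Hmga1 (-0.26 to 0.36). At P7 0 of 4 were called, where 2.12% of all genes were (256 genes, and 1210 unadjusted). The P7 differences were -0.09 for Igf2bp1 (-1.08 to 0.90), -0.09 for Igf2bp2 (-0.70 to 0.52), 0.14 for Igf2bp3 (-0.66 to 0.95) and -0.23 for Hmga1 (-0.54 to 0.08). In the adult 0 of 4 were called, where 0.0913% of all genes were (11 genes, and 301 unadjusted), with differences of -0.26 for Igf2bp2 (-0.87 to 0.35), -0.44 for Igf2bp3 (-1.25 to 0.36) and -0.02 for Hmga1 (-0.33 to 0.29). Igf2bp1 had 0 counts in both adult classes. The smallest unadjusted p among these member comparisons was 0.131, for Hmga1 at P7, and limma's precision-weighted variant on the recovered counts called 0 members at each age too.

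**Figure D4:**
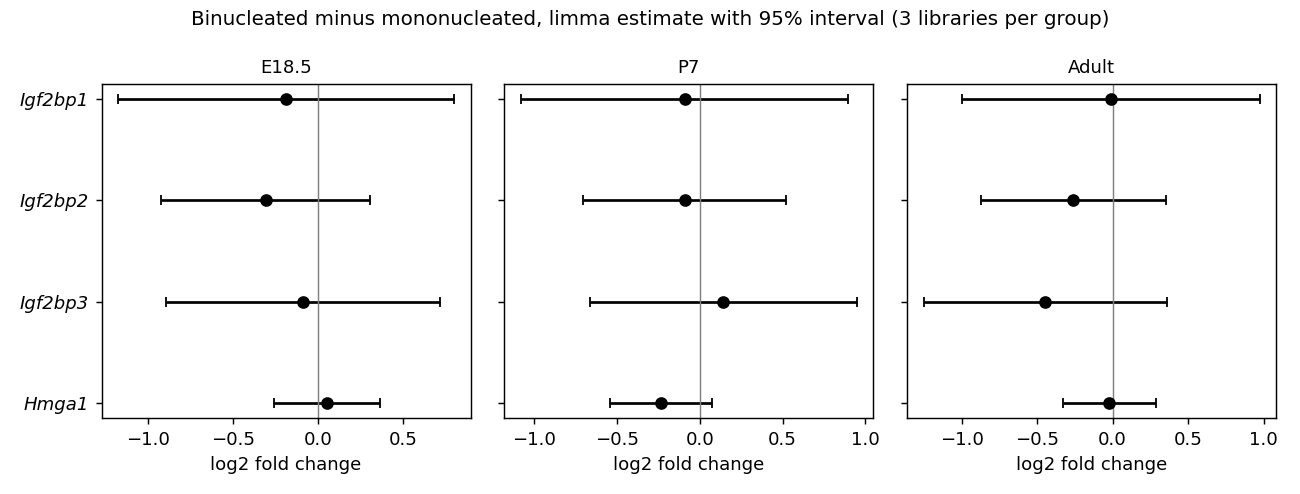
Binucleated minus mononucleated log2 difference of each gene for the 3 ages (E18.5, P7, adult), as limma estimates with 95% intervals from 3 libraries per group. Every interval includes 0, and those of Hmga1 are the narrowest (-0.26 to 0.36 at E18.5).

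The intervals bound how large a class difference could be. Over the ages they ran from -0.54 to 0.36 for Hmga1, and from -1.25 to 0.95 in log2 units for the Igf2bp genes outside adult Igf2bp1. The class difference itself was also compared between ages. At P7 against E18.5, 0 of 4 members were called (2.33% of all genes, and 1775 genes at an unadjusted p under 0.05). In the adult against P7, 0 of 4 were called (0.208% of all genes, and 568 genes unadjusted). By contrast with the members, the P7 binucleated cells had lower levels than the P7 mononucleated cells for 35 of 38 genes of DNA replication and the G1/S step (median log2 difference -2.34, against 0.02 for all genes). Of 40 G2/M genes, 7 were lower and 0 higher there (median -1.01). At E18.5, 0 were lower and 2 higher in binucleated cells (median 0.78). They summed to 4659 to 4876 CPM in those libraries and 2035 to 3038 CPM in E18.5 mononucleated libraries. Markers called higher in E18.5 binucleated cells were 6 of 12 fibroblast, 6 of 16 endothelial, 5 of 6 leukocyte and 1 of 8 pericyte. Erythroid and epicardial markers had 0 calls. The part of these genes in the class comparisons was not tested.

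Lin28b, Mycn, Plagl1, Igf2 and Igf1r were set beside the members. All were called lower in the adult than at P7 in both classes, and none was called between classes at any age. Their part in the changes of the members was not tested. Lin28b, which blocks let-7 maturation, is itself a described let-7 target, and its 3′ untranslated region of 4445 bases held 4 of the same motif matches. It averaged 8.33 ± 1.87 CPM in E18.5 binucleated and 5.97 ± 1.16 CPM in E18.5 mononucleated cells (SD, n = 3), then 3.48 ± 1.14 and 3.71 ± 1.26 CPM in P7 binucleated and P7 mononucleated cells. In the adult it averaged 0.612 ± 0.446 CPM in binucleated and 0.791 ± 0.650 CPM in mononucleated cells. Its P7 minus E18.5 log2 difference was -1.28 in binucleated cells (adjusted p = 0.091, limma) and -0.71 in mononucleated cells (adjusted p = 0.439), neither past the threshold. It fell by 2.71 ± 0.57 in adult against P7 binucleated cells (adjusted p = 0.0013) and fell by 2.41 ± 0.57 in mononucleated cells (adjusted p = 0.00279). Lin28a was not listed in the tables.

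Mycn, a growth-promoting transcription factor of the Myc family, fell by 3.29 ± 0.39 at P7 against E18.5 in binucleated cells on the log2 scale (adjusted p = 1.01e-05, limma) and fell by 3.20 ± 0.39 in mononucleated cells (adjusted p = 2.2e-05). It averaged 2.23 ± 0.86 CPM at P7 and 21.1 ± 3.7 CPM at E18.5 in binucleated cells, and 2.98 ± 0.29 CPM at P7 and 28.2 ± 7.0 CPM at E18.5 in mononucleated cells. Plagl1, an imprinted zinc-finger factor of fetal growth, fell by 1.80 ± 0.30 at P7 against E18.5 in binucleated cells (adjusted p = 0.000229) and fell by 1.34 ± 0.30 in mononucleated cells (adjusted p = 0.00427). In the adult against P7 it fell by 4.47 ± 0.30 in binucleated cells (adjusted p = 9.93e-09) and fell by 3.42 ± 0.30 in mononucleated cells (adjusted p = 1.49e-07).

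Igf2, the fetal growth factor whose messenger RNA gave the Igf2bp proteins their name, had a larger estimated fall than Igf2bp3. It averaged 746 ± 437 CPM in E18.5 binucleated cells, where replicate 1 had 1250 CPM, and 485 ± 34 CPM in E18.5 mononucleated cells. At P7 it averaged 54.3 ± 6.2 CPM in binucleated and 53.9 ± 5.3 CPM in mononucleated cells, and in the adult 0.371 ± 0.150 CPM in binucleated and 0.345 ± 0.039 CPM in mononucleated cells. The adult Igf2 values rest on 18 counts summed over the binucleated and 17 over the mononucleated libraries. In the adult against E18.5 it fell by 10.78 ± 0.30 in binucleated cells on the log2 scale (adjusted p = 4.51e-13, limma) and fell by 10.34 ± 0.30 in mononucleated cells (adjusted p = 9.43e-13). Igf1r, the receptor through which Igf2 signals, fell by 1.33 ± 0.41 in adult against P7 binucleated cells (adjusted p = 0.0178) and fell by 1.23 ± 0.41 in mononucleated cells (adjusted p = 0.0249).

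**Figure D5:**
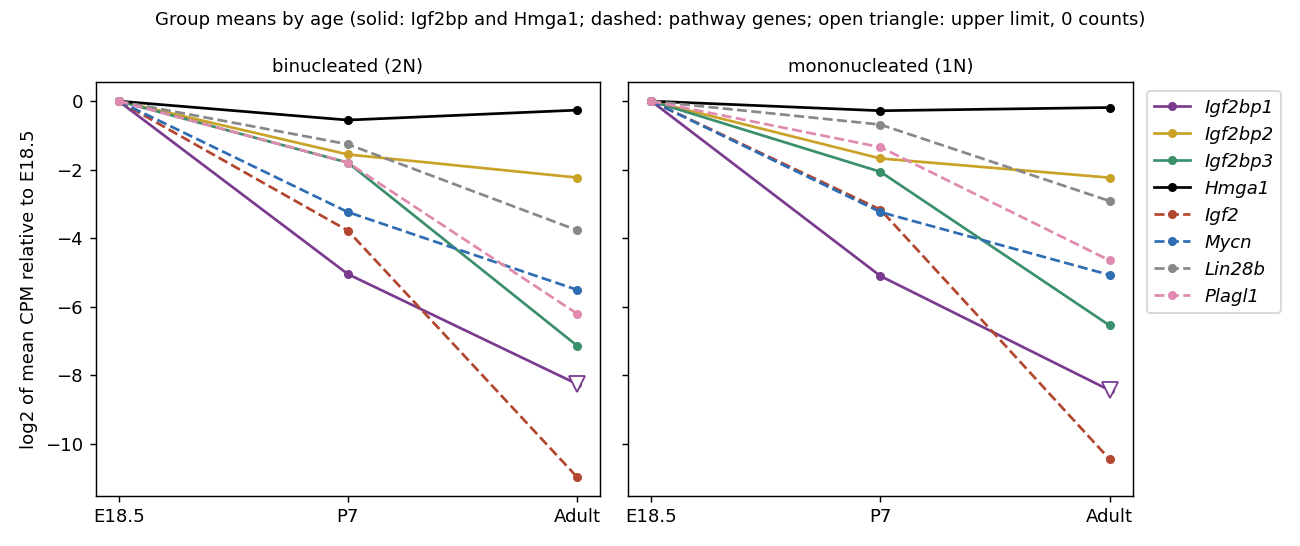
Group means by age on a log2 scale relative to E18.5, for binucleated (left) and mononucleated (right) cells: the 4 members as solid lines and Igf2, Mycn, Lin28b and Plagl1 as dashed lines. The open triangle marks the upper limit for Igf2bp1 in the adult, where it had 0 counts. Hmga1 stays nearest to 0, and Igf2 is the lowest line drawn in the adult. Igf2bp1 may lie anywhere below its limit, so its order with Igf2 in the adult is not known.

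The wider pathway lists were set beside the members as counts of called genes and medians, next to the median of all genes, which lay within 0.03 of 0 on the log2 scale in each comparison. Of all genes tested, 29.4% were lower and 28.3% higher in adult than in E18.5 binucleated cells, and 27.7% were lower and 26.2% higher in mononucleated cells. At P7 against E18.5, 17.7% of all genes were lower and 18.2% higher in binucleated cells, and 7.84% were lower and 10.7% higher in mononucleated cells. A list whose shares lie near these is not a result about that list. Of 31 measured genes described as let-7 targets, 16 were lower (51.6%) and 6 higher (19.4%) in adult than in E18.5 binucleated cells (median -0.59), and 14 were lower (45.2%) and 8 higher (25.8%) in mononucleated cells (median -0.61). E2f6, a repressive E2F, was higher by 1.41 ± 0.14 in adult than in E18.5 binucleated cells (adjusted p = 2.13e-07, limma), while Mycn fell by 5.53 ± 0.39 (adjusted p = 5e-09). At P7 against E18.5, 8 of the 31 were lower and 3 higher in binucleated cells, and 4 were lower and 0 higher in mononucleated cells. Of the 16 genes of the Lin28 and let-7 machinery, 7 were lower (43.8%) and 3 higher (18.8%) in adult than in E18.5 binucleated cells (median -0.44), and 8 were lower (50%) and 1 higher (6.25%) in mononucleated cells (median -0.55). Drosha, which makes the first cut in microRNA maturation, was higher by 1.05 ± 0.16 in adult than in E18.5 binucleated cells (adjusted p = 3.05e-05), while Tut4, a uridylyl transferase that acts with Lin28, fell by 0.94 ± 0.15 (adjusted p = 6.36e-05).

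Of 22 measured transcripts described as bound by Igf2bp proteins, 8 were lower (36.4%) and 8 higher (36.4%) in adult than in E18.5 binucleated cells (median -0.04), against 29.4% and 28.3% of all genes. In mononucleated cells 5 were lower (22.7%) and 11 higher (50%), with a median of 0.48, against 27.7% and 26.2% of all genes. Igf2 fell as given above, while Mapt, the microtubule-binding tau, was higher by 6.71 ± 0.45 in adult than in E18.5 binucleated cells (adjusted p = 2.5e-09, limma) and higher by 6.86 ± 0.45 in mononucleated cells (adjusted p = 2.58e-09). Actb, cytoplasmic actin, was higher by 1.12 ± 0.14 in adult than in P7 binucleated cells (adjusted p = 1.45e-05). Among the 15 m6A writers, erasers and YTH readers, 1 was lower (6.67%) and 3 higher (20%) in adult than in E18.5 binucleated cells (median 0.35), and 1 was lower and 1 higher (6.67% each) in mononucleated cells (median 0.05). Alkbh5, an m6A eraser, was higher by 0.64 ± 0.19 in adult than in E18.5 binucleated cells (adjusted p = 0.00881).

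Among 34 other messenger RNA-binding proteins, 10 were lower (29.4%) and 12 higher (35.3%) in adult than in E18.5 binucleated cells (median -0.15), and 11 were lower and 11 higher (32.4% each) in mononucleated cells (median 0.08). These shares lay near those of all genes. Fmr1, which represses translation, fell by 2.98 ± 0.19 in adult against E18.5 binucleated cells (adjusted p = 1.83e-09, limma), and Cpeb1, which controls polyadenylation, was higher by 3.91 ± 0.33 (adjusted p = 3.66e-08). Elavl2, an AU-rich element binder, fell by 5.21 ± 0.47 in adult against P7 binucleated cells (adjusted p = 2.62e-07).

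Other genes with a high mobility group (HMG) box, and nucleosome-binding HMG genes, were set beside Hmga1. The list is a wide one that also holds HMG-box factors such as Tcf7l2 and Tox3. Of 21 measured, 12 were lower (57.1%) and 0 higher in adult than in E18.5 binucleated cells (median -0.72), against 29.4% and 28.3% of all genes. In mononucleated cells 10 were lower (47.6%) and 0 higher (median -0.77), against 27.7% and 26.2% of all genes. Hmgb2, a chromatin protein of dividing cells, fell by 4.36 ± 0.24 in adult against E18.5 binucleated cells (adjusted p = 2.03e-10, limma) and fell by 3.47 ± 0.24 in mononucleated cells (adjusted p = 3.84e-09). Hmgn3, a nucleosome-binding protein, fell by 4.05 ± 0.23 in binucleated cells (adjusted p = 4.43e-10) and fell by 3.19 ± 0.23 in mononucleated cells (adjusted p = 9.57e-09). Hmgb2 also differed between classes at P7, with a binucleated minus mononucleated log2 difference of -1.28 ± 0.24 (adjusted p = 0.00644), where the Hmga1 difference was -0.23.

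Other fetal growth and imprinted genes were mostly lower in the adult. Of 12 measured, 11 were lower (91.7%) and 1 higher (8.33%) in adult than in E18.5 binucleated cells (median -3.10), and 9 were lower (75%) and 1 higher (8.33%) in mononucleated cells (median -2.75). Mest fell by 8.57 ± 0.26 in binucleated cells (adjusted p = 5.62e-13, limma) and fell by 8.66 ± 0.26 in mononucleated cells (adjusted p = 9.43e-13). Mest also differed between classes at P7, with a binucleated minus mononucleated log2 difference of -2.46 ± 0.26 (adjusted p = 0.000132). Of 16 genes of the IGF axis, 6 were lower (37.5%) and 3 higher (18.8%) in adult than in E18.5 binucleated cells, and 7 were lower (43.8%) and 6 higher (37.5%) in mononucleated cells. Grb10, an imprinted growth inhibitor, fell by 2.86 ± 0.24 in binucleated cells (adjusted p = 3.62e-08) and fell by 3.29 ± 0.24 in mononucleated cells (adjusted p = 8.61e-09).

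Markers of other cells moved with age in the binucleated libraries. Fibroblast markers summed to 50.1 to 66.3 CPM at P7 and 357 to 976 CPM at E18.5 in binucleated cells, and 11 of 12 were called lower (median log2 difference -5.37). In mononucleated cells they summed to 78.4 to 177 CPM at P7 and 68.7 to 120 CPM at E18.5, and 3 of 12 were called lower and 1 higher (median log2 difference -0.70). The P7 minus E18.5 log2 estimates of Igf2bp1, Igf2bp2 and Igf2bp3 were -5.16, -1.67 and -2.07 in the mononucleated libraries and -5.06, -1.46 and -1.83 in the binucleated libraries. Of the 5 epicardial markers listed, 5 were called lower in binucleated and 3 in mononucleated cells. They summed to 5.71 to 10.9 CPM at P7 against 56.5 to 59.1 CPM at E18.5 in binucleated cells, and to 4.10 to 7.60 CPM at P7 against 31.4 to 38.3 CPM at E18.5 in mononucleated cells. Of the 5 erythroid markers listed, 2 were called lower in binucleated and 0 in mononucleated cells. They summed to 5.24 to 19.7 CPM at P7 against 101 to 177 CPM at E18.5 in binucleated cells, and to 11.98 to 25.1 CPM at P7 against 38.5 to 67.3 CPM at E18.5 in mononucleated cells.

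Leukocyte and vessel markers were also lower at P7 than at E18.5 in the binucleated libraries. Leukocyte markers (6 listed) summed to 2.36 to 4.79 CPM at P7 and 14.4 to 39.0 CPM at E18.5 in binucleated cells, and to 15.1 to 25.9 CPM at P7 and 2.37 to 3.16 CPM at E18.5 in mononucleated cells. Of the 6, 6 were called lower in binucleated cells (median log2 difference -3.30), and 0 lower and 1 higher in mononucleated cells. Laptm5, C1qb and C1qc were at 0 in E18.5 mononucleated cells, Laptm5 and C1qb in P7 mononucleated cells, and C1qc in P7 binucleated cells. Of the 16 endothelial markers, 15 were called lower at P7 than at E18.5 in binucleated cells (median -3.35) and 1 in mononucleated cells, with none higher in either class. Endothelial sums at P7 were 13.4 to 14.99 CPM in binucleated cells, against 89.1 to 167 CPM at E18.5, and 16.2 to 31.5 CPM in mononucleated cells, against 21.2 to 45.0 CPM at E18.5. In the adult they were 119 to 140 CPM in binucleated cells and 101 to 112 CPM in mononucleated cells, higher than at P7 in both classes. Pericyte and smooth muscle markers (8 listed) ranged from 789 to 1686 CPM over all libraries, with 6 of 8 called lower and 1 higher at P7 than at E18.5 in binucleated cells (median -2.17), and 1 lower and 1 higher in mononucleated cells. The part of the fibroblast, epicardial, erythroid, leukocyte, endothelial and pericyte markers in the Igf2bp falls was not tested. Cell-cycle lists also moved with age: all 38 G1/S genes were lower in adult than in E18.5 cells in both classes, and of 40 G2/M genes 40 were lower in binucleated cells, and 39 were lower and 1 higher in mononucleated cells. At P7 against E18.5, all 40 G2/M genes and 36 of the 38 G1/S genes were lower in binucleated cells. In mononucleated cells 11 of the 40 G2/M genes were lower at P7, and of the 38 G1/S genes 0 were lower and 3 higher. The part of the cell-cycle genes was not tested.

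As a description of shape, log2 values over the 18 libraries were correlated between genes; the libraries share age groups, and the values carry no test. Among the members, Pearson's r was 0.9411 between Igf2bp1 and Igf2bp3, 0.9227 between Igf2bp1 and Igf2bp2, and 0.8338 between Igf2bp2 and Igf2bp3. Hmga1 had r = 0.4974 with Igf2bp2, 0.4521 with Igf2bp1 and 0.2002 with Igf2bp3. The 4 genes most like Igf2bp1 were Stard5, Cnn3, Spon1 and Slc16a3 (r 0.9871 to 0.9881). Those most like Igf2bp3 were Rbms3, Pck2, Tgfb1i1 and Ddc (0.9863 to 0.9899), and those most like Igf2bp2 included Slc7a5, Pak4 and Arid3a (0.9622 to 0.9723). The likest to Hmga1 were Phf20, Nudc, Supt3 and Prr5 (0.8395 to 0.8981).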

How the data were processed

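Bulk RNA sequencing values of 18 libraries were used. Per the labels' protocols, cells were sorted into Trizol-LS, and a stranded mRNA kit and a SMARTer amplification kit made the libraries; no molecular identifiers are described. The authors deposited log2 values per gene; per the submitters' processing notes STAR, limma and genome build mm9 were used, and the sources used here do not give versions, counter or gene filter. The log2 values were those of a whole count plus 0.5, times a factor per library: 100.0% of values gave a whole count within 0.001. CPM were scaled so that the geometric mean of scaled totals was 1000000, and RPKM used exon lengths of GENCODE M21, a different build, so no gene coordinates are given beyond those of RefSeq promoters. Of 12048 identifiers, 11927 matched a symbol.

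Tests were limma 3.58.1 (R 4.3.3) on the deposited log2 values, 6 group means over 18 libraries, 12 residual degrees of freedom, intensity trend, two-sided, adjusted over all genes, threshold 0.05. The script was tested on simulated data. Ratios used scipy 1.17.1. The deposited unit was not counts, so the planned count test was not run. Members and gene lists were chosen with earlier results of these data known; other genes are named by up to 3 smallest adjusted p per list and comparison, with Igf2, Lin28b, Igf1r, Plagl1 and Mycn. Lin28a and H19 were not listed, and some genes that this rule names are not reported here. Same-numbered libraries deviated together at P7 (correlation 0.182 to 0.236) and in the adult (0.261 to 0.327), and less so at E18.5 (0.0545 to 0.158). At every age, E18.5 included, each binucleated library correlated best with the mononucleated library of its own number.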

Additional observations from a re-analysis of the deposited data

How the results depend on the processing

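Of 668 recomputed member values, 628 kept direction and side of the threshold, 1 lost its call, 8 gained it and 31 changed sign. Every sign change was in a class difference that was not called. Of the sign changes, 3 were in the adult class difference of Igf2bp1 and 5 in its adult minus P7 class difference. Adult Igf2bp1 had 0 counts in every library, so its adult class difference reflects only the 0.5 added and holds no information on expression. The count test on recovered reads and the change of pseudocount were not run, because the deposited values are log2 values; limma voom on recovered counts took its place and, like the ratio tests, was chosen after seeing the data. The replicate block across all groups and the block within age changed no member call: the pairing left 0 members called between classes, with Hmga1 at P7 at -0.232 (adjusted p = 0.778 and 0.531, limma). The call lost was Hmga1 at P7 against E18.5 in binucleated cells, in a fit of those groups alone (adjusted p = 0.119). Hmga1 in mononucleated cells gained a call with array weights (-0.36, adjusted p = 0.0162). Igf2bp2 in the adult against P7 gained calls with array weights (adjusted p = 0.00589 binucleated, 0.0161 mononucleated) and in fits of those groups alone (0.0493 and 0.0253). The cause was not tested.

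Changed signs of binucleated minus mononucleated log2 differences under array weights were 0.0183 for Igf2bp2 and -0.0994 for Hmga1 at E18.5, and -0.0785 for Igf2bp3 at P7. Under the same weights the class difference at P7 minus that at E18.5 was -0.0992 for Igf2bp1, -0.0569 for Igf2bp2 and -0.0109 for Igf2bp3. Quantile normalization gave 0.495 for Igf2bp1 at P7 and -0.567 for its adult minus P7 class difference. Leaving out each library in turn gave -0.546 to 0.0897 for Igf2bp2, -0.161 to 0.0011 for Igf2bp3 and -0.0138 to 0.153 for Hmga1 at E18.5. At P7 the ranges were -0.523 to 0.263 for Igf2bp1 and -0.0719 to 0.375 for Igf2bp3. In the adult they were -0.466 to 0.0533 for Igf2bp2, -0.793 to 0.0929 for Igf2bp3 and -0.0541 to 0.0126 for Hmga1. The adult range for Igf2bp1 (-0.0946 to 0.0718) comes from 0 counts in every library and says nothing about expression. For the class difference at P7 minus E18.5 they were -0.336 to 0.451 for Igf2bp1 and -0.181 to 0.455 for Igf2bp2, and for adult minus P7 they were -0.276 to 0.51 and -0.375 to 0.144.

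Over all genes, the 97 called between classes at E18.5 became 37 with the low-value filter, 0 in the 2 groups alone, 338 with array weights and 204 with voom. The 256 at P7 became 608 in the 2 groups alone and 1401 with array weights. The 11 in the adult became 5 (quantile), 0 (2 groups alone, voom), 52 (array weights) and 25 (block within age). For P7 minus E18.5, 2231 calls in mononucleated cells became 3875 in the 2 groups alone and 5177 with array weights, and 4332 in binucleated cells became 2069 in the 2 groups alone. The 281 class differences that changed between E18.5 and P7 became 1199 with array weights and 430 with voom, and the 25 between P7 and adult became 233 with array weights, 15 and 12 with the blocks, and 1 with voom. Without E18.5 binucleated replicate 1 the calls between classes were 574 at P7 and 23 in the adult, 3901 for P7 minus E18.5 in mononucleated cells, and 568 and 102 for the changes in class difference; without E18.5 binucleated replicate 3 they were 282 at E18.5. Leaving out each P7 library gave 129 to 166 calls between classes at P7, and leaving out adult mononucleated replicate 2 gave 2 in the adult. Leaving out single P7 libraries took the change in class difference to as few as 160 at P7 against E18.5 and 0 in the adult against P7. Without E18.5 binucleated replicate 1 the 6 ratio differences kept their signs and sides of the threshold (Igf2bp2 to Hmga1 at P7 minus E18.5, -1.37, exact permutation p = 0.00433). Depth limits the adult values of Igf2bp1 and Igf2bp3, which rest on 0 to 13 counts per library. It also limits those of Igf2, Mycn and Lin28b, with 17 to 41 counts summed over each adult group.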
